A study of Mus musculus with 4 samples.

Results

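The genes described here encode the conjugating (phase II) enzymes that attach glutathione, glucuronic acid or sulfate to drugs, hormones and metabolites. They were chosen by gene symbol: 52 of the 30145 genes that the array annotation names with a single symbol carry a name of a glutathione S-transferase (Gst or Mgst), a UDP-glycosyltransferase (Ugt) or a sulfotransferase (Sult). Of these, 23 are glutathione enzymes, 10 glucuronide enzymes and 19 sulfate enzymes. The glucuronide enzymes are 8 Ugt2 and 2 Ugt3 genes. No Ugt1 gene is among them, so the counts of this class do not cover the Ugt1 family. Only Sult6b1 had 2 array features, and the feature with the higher mean was used.

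Total RNA from sorted cells of the small intestine of 8-week-old mice was hybridised to 4 Clariom D mouse arrays, 1 array per group. All mice carried Lgr5GFP-CreERT2, an allele that puts GFP under the control of Lgr5, the R-spondin receptor gene of crypt base stem cells. The groups were wild-type GFP-negative cells (non-ISCs, here the non-stem array), wild-type GFP-positive cells (ISCs, the wild-type stem array), GFP-positive cells with mutated LncGata6 (LncGata6 mut) and GFP-positive cells lacking Ehf (Ehf-/-, labelled Ehf knockout). How many mice stand behind an array is not given in the sources used here, and the collection text of all 4 samples names a sort of ILCreg cells, so the gate is uncertain. With 1 array per group no difference has an error estimate and no test is possible.

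The labels did not fully match the contents, and arrays are named here by their labels. Lgr5 read 9.41 (log2) in wild-type stem cells, but 3.03 with mutated LncGata6, 2.79 without Ehf and 3.03 in non-stem cells. Ehf itself read 3.03 without Ehf, against 6.99 in wild-type stem cells, 5.09 with mutated LncGata6 and 3.75 in non-stem cells. No feature named LncGata6 was analysed here, and its neighbour Gata6 read 7.21 in wild-type stem cells and 7.62 with mutated LncGata6. All 15 measured hepatocyte markers and all 14 kidney tubule markers were above the control limit on the non-stem array, with medians of 11.3 and 8.91, against medians of 1.83 to 3.23 on the other arrays. All 15 enterocyte markers were above it on the LncGata6 mutant array (median 10.6) and on the non-stem array (8.49), and 11 were in wild-type stem cells (7.37). Paneth markers had a median of 10.7 in wild-type stem cells, 8.92 with mutated LncGata6, 4.50 in non-stem cells and 2.53 without Ehf. On the Ehf knockout array 0 of 10 general epithelial markers reached the limit (median 3.71) while all 10 neutrophil markers did (median 9.53). In such mixed samples, fewer cells of a type and less RNA per cell cannot be told apart.

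Conjugation makes fat-soluble compounds water-soluble so that export pumps can carry them into bile, urine or the gut lumen. Glutathione S-transferases join electrophiles to glutathione, UDP-glucuronosyltransferases of the endoplasmic reticulum transfer glucuronic acid from UDP-glucuronic acid, and cytosolic sulfotransferases transfer sulfate from the donor PAPS. Liver and kidney are the best known sites, and absorptive enterocytes of the intestine also carry members of every class. The Ugt3 enzymes are placed with the glucuronide enzymes by name, although their human counterparts are known to use other UDP sugars.

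Values are the authors' log2 values. A gene was called higher or lower when its log2 values lay at least 1 apart, a factor of 2, with the higher value at or over the 75th percentile of its array (4.62 to 5.28). A value counted as above the control limit when it reached the 95th percentile of the negative-control features of its array, which was 5.16 on the non-stem, 5.62 on the wild-type stem, 5.31 on the LncGata6 mutant and 5.19 on the Ehf knockout array. Folds are brighter over dimmer, and a dimmer value under its control limit was replaced by that limit, which makes the fold a lower bound ("at least"). Values of different genes come from different probes and are not compared with each other. Features of near-identical family members (Gstm, Gstp, Ugt2b, Sult2a) may share probes, so single genes of these families are uncertain.

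The 3 classes differed in where they were seen above the control limit. On the non-stem array 30 of the 52 genes reached it: 17 of 23 glutathione, 10 of 10 glucuronide and 3 of 19 sulfate enzymes. In wild-type stem cells 8 did (6, 1 and 1), on the LncGata6 mutant array 14 (9, 2 and 3) and on the Ehf knockout array 5, all of them glutathione enzymes. Over all genes the shares were 26.7%, 16.7%, 20.3% and 17.6% in the same order of arrays, against 57.7%, 15.4%, 26.9% and 9.62% of the conjugation enzymes. The non-stem array held the highest value for 40 of the 52 (76.9%, against 45.3% of all genes), and the Ehf knockout array held the lowest for 40 (76.9%, against 47.2%).

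**Figure D1:**
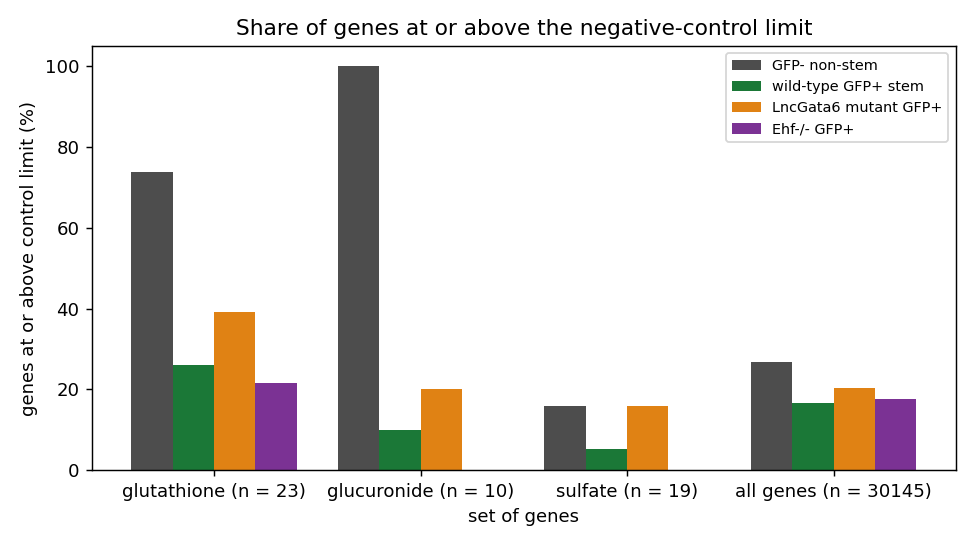
Share of genes (percent, y axis) whose value reached the 95th percentile of the negative controls of the same array, for glutathione (n = 23), glucuronide (n = 10) and sulfate enzymes (n = 19) and all 30145 genes (x axis), with 1 bar per array. All 10 glucuronide enzymes reached it on the non-stem array, and the Ehf knockout array has bars of 0 for glucuronide and sulfate enzymes.

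There were 5 glutathione enzymes above the limit on every array, which no glucuronide or sulfate enzyme was. This is 5 of the 52 enzymes, against 3654 of all 30145 genes, a similar share. Gstp1, the pi-class transferase, read 10.1 on the non-stem, 7.86 on the wild-type stem, 7.83 on the LncGata6 mutant and 6.99 on the Ehf knockout array. Gstm1, a mu-class transferase, read 10.4, 6.38, 6.54 and 7.20 in that order. Its value on the Ehf knockout array was thus above those of both other GFP-positive arrays, unlike the value of Gstp1. The omega-class enzyme Gsto1, which reduces dehydroascorbate and methylated arsenic, read 6.31, 6.93, 7.21 and 5.25, so it was one of the few genes not highest on the non-stem array. The membrane-bound Mgst1 read 7.55, 5.91, 5.37 and 5.49, and Mgst3 read 6.27, 5.88, 6.15 and 5.75. Mgst3 varied least of these 5, by 0.51 between its highest and lowest array.

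**Figure D2:**
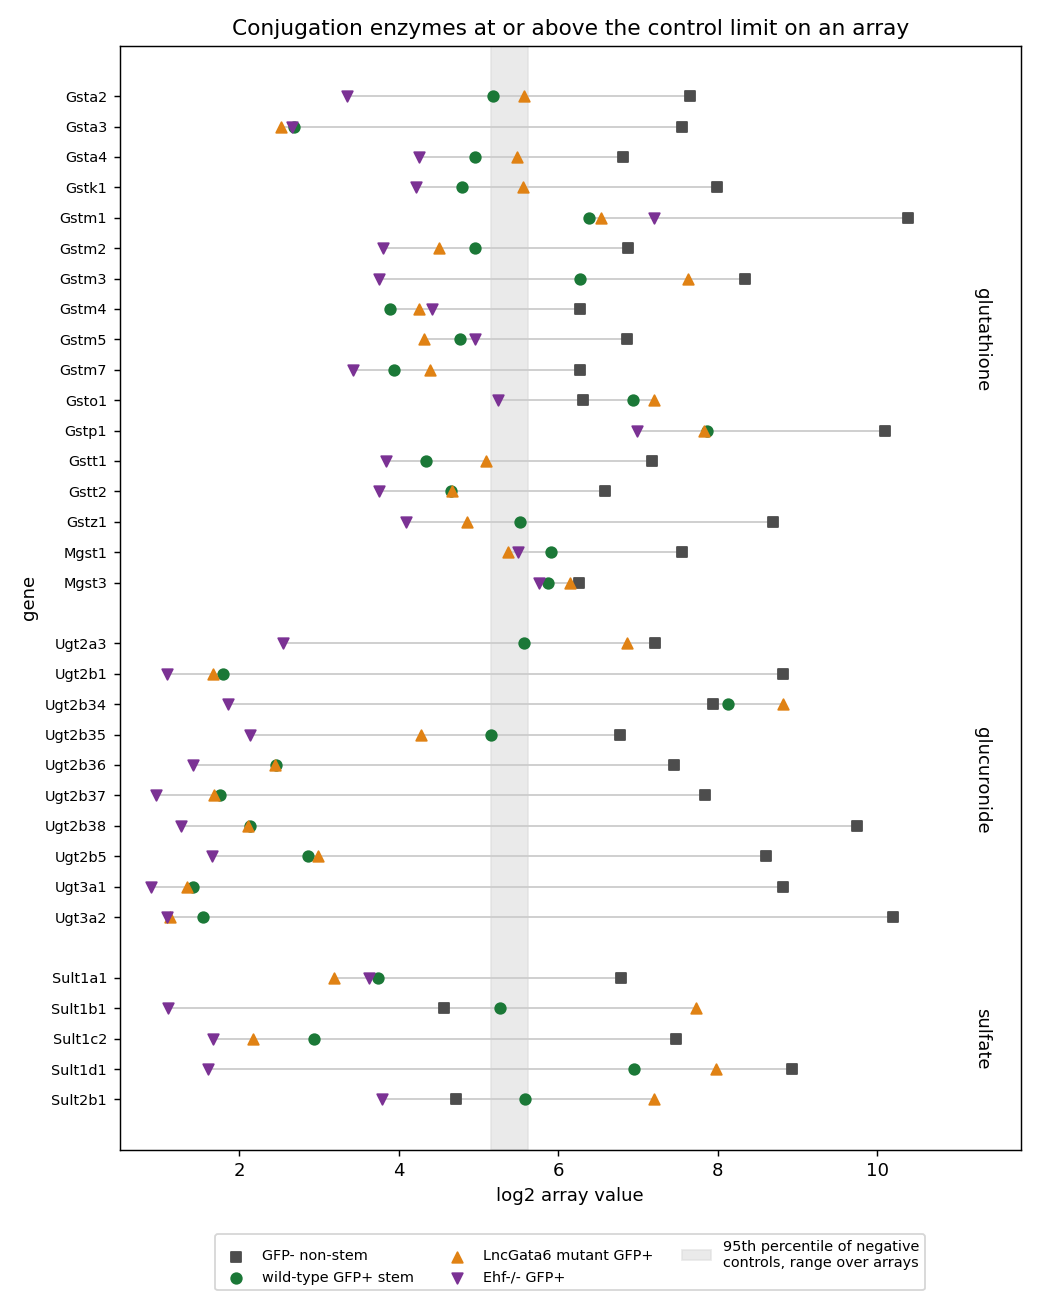
Log2 array value (x axis) of the 32 conjugation enzymes that reached the control limit on at least 1 array (y axis), grouped by class, with 1 symbol per array and no replicates. The grey band spans the 4 control limits, 5.16 to 5.62. Squares (non-stem array) lie farthest right for most genes and downward triangles (Ehf knockout array) farthest left, while Ugt2b34, Sult1b1, Sult2b1 and Gsto1 are highest on the LncGata6 mutant array.

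The first comparison asked which genes separate wild-type stem from non-stem cells. On the wild-type stem array 27 of the 52 enzymes were lower and 1 higher, against 7.12% of all genes lower and 3.85% higher. The median difference over the enzymes was -1.64, and that over all genes -0.11. By class, 15 of 23 glutathione enzymes were lower (median -1.93), 9 of 10 glucuronide enzymes (median -5.92) and 3 of 19 sulfate enzymes (median -0.15). Only 1 glucuronide enzyme was above the control limit in wild-type stem cells, so the glucuronide median is not exact. The sulfate median comes mostly from the 14 sulfate enzymes under the limit on every array. The marker lists moved with the lower values of the enzymes. On the wild-type stem array 14 of 15 hepatocyte and 14 of 14 kidney tubule markers were also lower, by medians of -8.55 and -6.22. General epithelial markers were higher there in 10 of 10 cases (2.20). Their part in the result was not tested.

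Among the glutathione enzymes, Gstm1 had the largest fold on measured values, 16.1-fold lower on the wild-type stem array. Gstp1 was 4.73-fold lower and Gstm3 4.21-fold lower. All 7 mu-class genes had lower values there, with differences of -4.01 to -1.80, and 6 were called. Gstm3 read 8.34 on the non-stem, 6.27 on the wild-type stem, 7.63 on the LncGata6 mutant and 3.75 on the Ehf knockout array, the order of arrays used from here on. Gstm2 read 6.88, 4.95, 4.50 and 3.80 (at least 2.38-fold lower in wild-type stem than in non-stem cells) and Gstm5 read 6.86, 4.76, 4.32 and 4.95 (at least 2.36-fold). Gstm4 and Gstm7 both read 6.27 in non-stem cells and were at least 1.56-fold and 1.57-fold lower, with 3.89, 4.26 and 4.42 for Gstm4 and 3.94, 4.39 and 3.43 for Gstm7 on the GFP-positive arrays. For these 4 only the non-stem value was above a control limit. Gstm6 (4.80 and 3.0) was not called because both values were dim.

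The alpha-class genes, whose products handle lipid peroxides and steroids, were lower too. Gsta3 read 7.55, 2.69, 2.52 and 2.66, at least 3.80-fold lower on the wild-type stem array. Gsta2 read 7.66, 5.18, 5.57 and 3.36 (at least 4.10-fold). Gsta4, which detoxifies the lipid aldehyde 4-hydroxynonenal, read 6.81, 4.96, 5.49 and 4.25 (at least 2.27-fold). Gsta2 and Gsta4 were thus above the control limit with mutated LncGata6 as well as in non-stem cells, and Gsta3 only in non-stem cells.

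The remaining classes followed with single genes. Gstz1, the maleylacetoacetate isomerase of tyrosine breakdown, read 8.70, 5.52, 4.85 and 4.09, at least 8.42-fold lower in wild-type stem than in non-stem cells. Gstk1, found in mitochondria and peroxisomes, read 8.0, 4.79, 5.56 and 4.21 (at least 5.18-fold). Both were above the control limit in non-stem cells and under it in wild-type stem cells. The theta-class gene Gstt1 read 7.18, 4.34, 5.09 and 3.84 (at least 2.95-fold) and Gstt2 read 6.58, 4.65, 4.66 and 3.75 (at least 1.94-fold). Mgst1 was 3.12-fold lower.

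Mgst2, which can make leukotriene C4, was the single enzyme called higher. It read 3.98 on the non-stem array and 5.17 on the wild-type stem array, both under the control limits, so no fold is given. Gsto1 (difference 0.63) and Mgst3 (-0.39) were not called. The other uncalled glutathione genes, Gsto2, Gstp3, Gstt3 and Gstt4, were under the control limit on every array, as were Gstm6 and Mgst2. These 6 read 2.27 to 5.17 over the 4 arrays.

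Of the 10 glucuronide enzymes, 8 were above the control limit only on the non-stem array, as were 2081 of all 30145 genes. These 8 were Ugt2b1, Ugt2b5, Ugt2b35, Ugt2b36, Ugt2b37, Ugt2b38, Ugt3a1 and Ugt3a2. Without Ugt2b35, the other 7 read 7.46 to 10.2 there and 0.89 to 2.99 on all 3 GFP-positive arrays. The 7 were grouped by these values, so the gap between the ranges follows from the grouping. Ugt3a2 read 10.2, 1.54, 1.13 and 1.09 (at least 23.9-fold lower in wild-type stem cells). Ugt3a1 read 8.81, 1.41, 1.34 and 0.89 (at least 9.13-fold). Both Ugt3 genes were far under the control limit on every GFP-positive array.

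The Ugt2b enzymes conjugate steroids, bile acids and drugs. Ugt2b38 read 9.75, 2.13, 2.11 and 1.26 (at least 17.4-fold). Ugt2b1 read 8.82, 1.80, 1.67 and 1.09 (at least 9.14-fold), and Ugt2b5 read 8.60, 2.86, 2.99 and 1.65 (at least 7.89-fold). For these 3 every GFP-positive value lay under the control limit. Ugt2b37 read 7.84, 1.76, 1.69 and 0.95 (at least 4.66-fold), and Ugt2b36 read 7.46, 2.46, 2.45 and 1.41 (at least 3.57-fold).

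The other 3 glucuronide enzymes had smaller differences between wild-type stem and non-stem cells. Ugt2b34 read 7.94 on the non-stem, 8.13 on the wild-type stem and 8.82 on the LncGata6 mutant array but 1.86 on the Ehf knockout array. Ugt2a3 read 7.22, 5.57, 6.86 and 2.55. Ugt2b35 read 6.78, 5.16, 4.28 and 2.13. Only Ugt2b34 was above the control limit on the wild-type stem array, and it was the one glucuronide enzyme not called lower there (difference 0.19).

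Ugt2b34 and the strongly separated Ugt2b genes are neighbours. In the RefSeq annotation of GRCm38.p6, 13 protein-coding genes in a row on chromosome 5, between Ythdc1 and Csn1s1, are 10 Ugt2 and 3 Sult1 genes, and 11 of them are measured here. In chromosomal order, Ugt2b34, which differed by 0.19 between wild-type stem and non-stem cells, is followed by Ugt2b1 (-7.02), Ugt2b35 (-1.62), Ugt2b36 (-4.99), Ugt2b5 (-5.74), Ugt2b37 (-6.09), Ugt2a3 (-1.64) and Ugt2b38 (-7.62). After Ugt2a1 and Ugt2a2, which share a feature and are left out by the rule, come Sult1b1 (0.70), Sult1d1 (-1.98) and Sult1e1 (-0.38, under the control limits). Ugt2b35 and Ugt2a3, with the smaller differences, each lie between neighbours with larger ones. Most wild-type stem values of the row are under the control limit, so the larger differences are not exact. On the Ehf knockout array all 11 read 0.95 to 2.55.

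**Figure D3:**
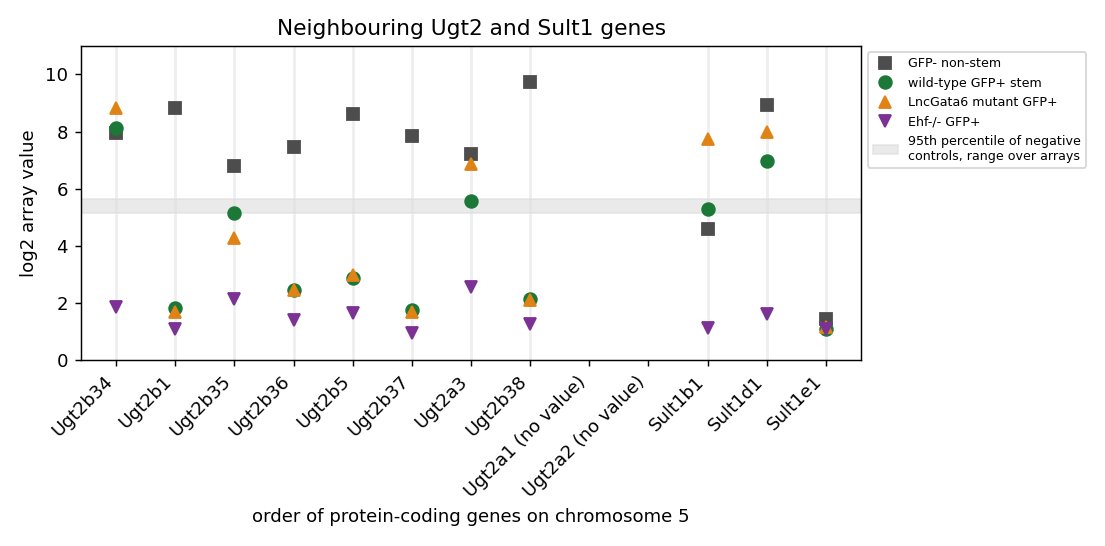
Log2 array value (y axis) of the 11 measured genes in the row of 13 Ugt2 and Sult1 genes on chromosome 5, in chromosomal order (x axis, not to genomic scale), with 1 symbol per array and no replicates. The grey band spans the control limits. Ugt2b34, Ugt2a3, Sult1b1 and Sult1d1 are the 4 genes of the row above 5.31, the control limit, on the LncGata6 mutant array.

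The stretch just before the start of these genes is shown because neighbours with different changes share part of it. The promoters of 6 Ugt2b genes hold a 13-base block of the form GTTANANTTTAAC (searched on either strand, in the 250 bases before and 50 after the RefSeq start). It is the 13-base stretch with the most letters common to these 6, which were picked after the sequences had been seen. The block is in capitals, and each sequence is 62 bases read 5′ to 3′ on the strand of the gene, from RefSeq on GRCm38.p6.
Ugt2b38 (chr5:87424212-87424273, minus strand): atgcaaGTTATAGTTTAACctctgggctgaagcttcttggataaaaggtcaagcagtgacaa
Ugt2b37 (chr5:87254811-87254872, minus strand): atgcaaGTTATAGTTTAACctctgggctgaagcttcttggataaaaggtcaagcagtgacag
Ugt2b5 (chr5:87140346-87140407, minus strand): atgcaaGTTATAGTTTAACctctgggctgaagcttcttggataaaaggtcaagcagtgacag
Ugt2b36 (chr5:87092564-87092625, minus strand): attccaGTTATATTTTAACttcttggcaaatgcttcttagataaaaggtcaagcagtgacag
Ugt2b35 (chr5:87000784-87000845, plus strand): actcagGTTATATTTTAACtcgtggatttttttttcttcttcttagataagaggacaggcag
Ugt2b34 (chr5:86906955-86907016, minus strand): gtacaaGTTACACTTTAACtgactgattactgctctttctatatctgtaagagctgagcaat

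Lined up on the block without gaps, the stretches of Ugt2b37 and Ugt2b5 were each identical to that of Ugt2b38 at 61 of 62 bases and that of Ugt2b36 at 52. Those of Ugt2b34 and Ugt2b35 were identical to it at 32 and 31 of 62 bases, the 13-base block included. The 4 genes with the more alike stretches differed by -7.62 to -4.99 between wild-type stem and non-stem cells, Ugt2b34 by 0.19 and Ugt2b35 by -1.62. For these 4 the wild-type stem values were under the control limit, so their differences are not exact. Features of Ugt2b genes may share probes, so alike values need not be separate measurements. The block was found in the windows of 11 of 27025 genes (0.0407%), 6 of them these Ugt2b genes, from which it was taken. It was not found in the windows of Ugt2b1 (difference -7.02) or Ugt2a3 (-1.64). Ugt2b38, the reference of the identities, had the lowest of these differences. A link between sequence and values was not tested.

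Of the 52 enzymes 45 had a promoter window. The core of the antioxidant response element, TGACNNNGC, read by the stress factor Nrf2, was found on either strand in the windows of 4 of them, Gsta3, Gstm5, Gstm7 and Mgst1 (8.89%, against 14.0% of all genes). The aryl hydrocarbon response element TNGCGTG was found for Gsta2 and Sult1d1 (4.44%, against 5.84%). The palindromic site of the liver and gut factor HNF1, searched only as an exact match, was found for 0 of 45. Only 3 of all 27025 genes (0.0111%) had such a match, so the search was too strict to tell whether the enzymes have HNF1 sites. Looser forms of the site, which the block of the Ugt2b promoters could resemble, were not tested.

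Most sulfate enzymes were dim, as were most of all genes. Of the 19, 14 were under the control limit on every array, against 20713 of all 30145 genes. These 14 read 0.71 to 3.65. Among them were all 7 Sult2a genes, the hydroxysteroid and bile acid sulfotransferases of liver, which read 0.89 to 1.79. The oestrogen sulfotransferase Sult1e1 read 1.07 to 1.45 and Sult4a1, known from brain, 2.84 to 3.34. On the non-stem array the Sult2a genes read 1.28 to 1.79 and the hepatocyte markers had a median of 11.3. The reason for the low Sult2a values was not tested.

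Of the 5 measurable sulfate enzymes, 2 were above the control limit only on the non-stem array. Sult1a1, the phenol sulfotransferase, read 6.78, 3.74, 3.19 and 3.62 (at least 2.23-fold lower on the wild-type stem array). Sult1c2 read 7.48, 2.93, 2.18 and 1.67 (at least 3.63-fold). Sult1d1, which accepts catecholamines, read 8.94, 6.96, 7.98 and 1.61. It was 3.94-fold lower in wild-type stem than in non-stem cells but stayed above the control limit there.

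Sult1b1 and Sult2b1 did not pass both limits in this comparison. Sult1b1, an enzyme of the gut that sulfates phenols and thyroid hormone, read 4.57, 5.27, 7.72 and 1.11. Sult2b1, which sulfates cholesterol and pregnenolone, read 4.72, 5.58, 7.20 and 3.79. Both were above the control limit only on the LncGata6 mutant array.

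**Figure D4:**
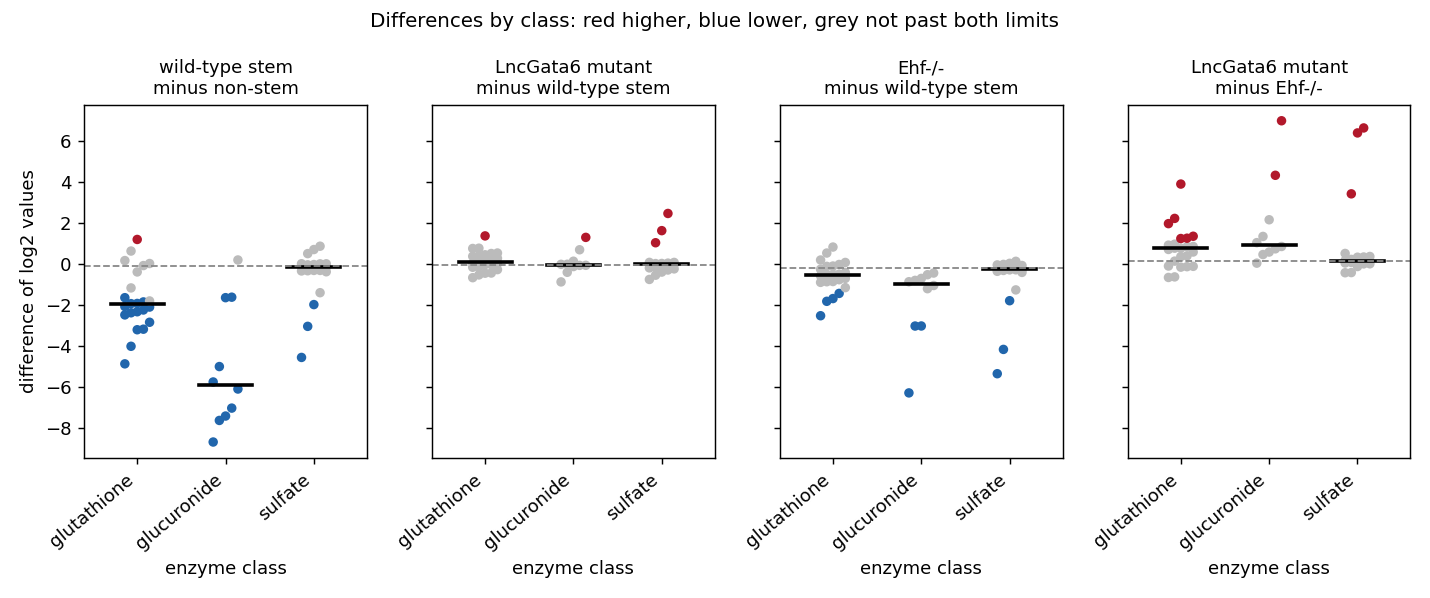
Difference of log2 values (y axis) of every conjugation enzyme by class (x axis: 23 glutathione, 10 glucuronide, 19 sulfate) in 4 comparisons, 1 point per gene, with the class median as a black bar and the median of all genes as a dashed line. Blue points pass both limits as lower and red points as higher. The glucuronide median of -5.92 in the first panel is the farthest from 0, and the second panel holds 5 red and 0 blue points.

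The second comparison asked what mutated LncGata6, a long noncoding RNA next to Gata6, changes in GFP-positive cells. On the LncGata6 mutant array 5 enzymes were higher than on the wild-type stem array and 0 lower, against 2.84% of all genes higher and 3.04% lower. The median over the 52 was -0.0087, and that over all genes -0.058. The 5 come from all classes: Gstm3, Ugt2a3, Sult1b1, Sult1d1 and Sult2b1. Enterocyte markers were higher in 15 of 15 cases, by a median of 3.51, and 7 of 7 lymphocyte markers by 4.26. Crypt base stem markers were lower in 6 of 10 cases. Their part in the result was not tested.

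Of the 5, 3 are sulfotransferases. Sult1b1 was at least 4.29-fold higher (7.72 against 5.27), Sult2b1 at least 2.98-fold (7.20 against 5.58) and Sult1d1 2.04-fold (7.98 against 6.96). Ugt2a3 was at least 2.36-fold higher (6.86 against 5.57) and Gstm3 2.57-fold (7.63 against 6.27). Ugt2b34 had a difference of 0.69 and was not called. The 8 glucuronide enzymes above the control limit only on the non-stem array, Ugt2b35 included, stayed under it, with differences of -0.88 to 0.13. The 5 glutathione enzymes above the limit on every array differed by -0.54 to 0.27.

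A further comparison asked what loss of Ehf, an ETS factor of epithelia, changes in GFP-positive cells. On the Ehf knockout array 10 enzymes were lower than on the wild-type stem array and 0 higher, against 5.29% and 2.59% of all genes. The median over the 52 was -0.50 and that over all genes -0.20. Lower were 4 glutathione (Gsta2, Gstm3, Gsto1 and Gstz1), 3 glucuronide (Ugt2a3, Ugt2b34 and Ugt2b35) and 3 sulfate enzymes (Sult1b1, Sult1d1 and Sult2b1). General epithelial markers were lower in 10 of 10 cases (median -5.06) and enterocyte markers in 13 of 15 (-3.63), while neutrophil markers were higher in 10 of 10 (6.96). Their part in the result was not tested.

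Ugt2b34 read 1.86 against 8.13 (at least 7.69-fold lower). Sult1d1 read 1.61 against 6.96 (at least 3.40-fold) and Gsto1 5.25 against 6.93 (3.22-fold). Gstm3 read 3.75 against 6.27 (at least 2.12-fold). The other 6 were under the control limit on both arrays, so no fold is given, and their calls rest on dim values: only 4 enzymes were lower when the brighter value had to reach the control limit. Gstm1 went the other way, by 0.82, and was called higher after each of 3 rescalings of the arrays (median centring, quantile normalization and cyclic loess). Gstp1 (-0.87), Mgst1 (-0.42) and Mgst3 (-0.12) were not called.

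Between the mutants, 11 enzymes were higher with mutated LncGata6 than without Ehf and 0 were lower, against 6.21% of all genes higher and 3.5% lower. Over the 52 the median difference was 0.48, and over all genes 0.13. Ugt2b34 was at least 12.4-fold higher, Sult1d1 at least 6.94-fold, Sult1b1 at least 5.79-fold and Gstm3 at least 5.44-fold. Sult2b1 (at least 4.03-fold), Gsto1 (3.89-fold) and Ugt2a3 (at least 3.19-fold) were higher too. Enterocyte markers were higher in 15 of 15 cases (median 7.19), general epithelial markers in 10 of 10 (3.86), and neutrophil markers were lower in 10 of 10 (-6.77). Their part in the result was not tested. The remaining 4 enzymes were Gsta2 (at least 1.30-fold), Gsta4 (at least 1.23-fold), Gstk1 (at least 1.29-fold) and Gstt1, with differences of 1.23 to 2.21. For Gstt1 both values were under the control limits, so no fold is given. Gsta4 and Gstt1 lost their calls under quantile normalization and cyclic loess.

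The comparisons of the mutants share the wild-type stem array, and both mutants share an array with this direct comparison, so the calls are not independent. Side by side, the differences with mutated LncGata6 and without Ehf were 1.36 and -2.52 for Gstm3, and 1.03 and -5.34 for Sult1d1. Those of Ugt2a3, Sult1b1 and Sult2b1 without Ehf rest on values under the control limits of both arrays.

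Genes for the supply and breakdown of the cofactors were followed beside the enzymes. The counts of these and the following lists stand against 7.12% of all genes lower and 3.85% higher in wild-type stem than in non-stem cells, 2.84% higher with mutated LncGata6, and 5.29% lower and 2.59% higher without Ehf. Of the 10 measured genes for sulfate uptake and the sulfate donor PAPS, 4 were lower in wild-type stem than in non-stem cells and 2 higher, 2 were higher on the LncGata6 mutant than on the wild-type stem array, and 7 were lower on the Ehf knockout array. Papss2, a synthase of PAPS, read 9.60 on the non-stem, 6.0 on the wild-type stem, 8.19 on the LncGata6 mutant and 5.21 on the Ehf knockout array, which makes it 4.56-fold higher with mutated LncGata6. The sulfate transporter Slc26a1 read 6.55, 2.66, 2.65 and 2.81 (at least 1.90-fold lower in wild-type stem than in non-stem cells). The sulfate transporter Slc13a1 read 8.19, 5.72, 7.09 and 2.50. Bpnt1, which degrades the spent donor, read 8.02, 7.02, 7.81 and 4.72 (at least 3.55-fold lower on the Ehf knockout than on the wild-type stem array). Slc26a2 (5.09, 6.55, 6.94 and 4.78) and Slc26a3 (3.85, 6.03, 5.82 and 2.64), anion exchangers of the gut, were the 2 higher on the wild-type stem than on the non-stem array.

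Of 8 measured genes of glutathione supply and breakdown, 3 were lower on the wild-type stem than on the non-stem array. Gclc, the catalytic subunit of the rate-limiting enzyme of glutathione synthesis, read 9.37 on the non-stem, 6.01 on the wild-type stem, 6.33 on the LncGata6 mutant and 6.81 on the Ehf knockout array (10.3-fold lower on the wild-type stem than on the non-stem array). Glutathione synthetase (Gss) read 7.52, 5.72, 5.72 and 4.55. The LncGata6 mutant array was higher than the wild-type stem array in 2 of the 8, the peptidases Anpep (5.12-fold) and Dpep1 (6.61-fold), which trim glutathione conjugates at the cell surface. Anpep also stands in the enterocyte list. On the Ehf knockout array 3 of the 8 were lower (Gss, Anpep and Dpep1) and 0 higher.

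Of 6 genes of UDP-glucuronic acid supply and glucuronide breakdown, 3 were lower in wild-type stem than in non-stem cells. In the LncGata6 comparison 0 were called, and on the Ehf knockout array 1 was lower. The 3 lower ones were the nucleotide sugar transporters Slc35d1 (at least 1.52-fold) and Slc35d2 and the UDP-glucose enzyme Ugp2 (at least 2.09-fold). Slc35d2 read 5.62 on the non-stem and 3.36 on the wild-type stem array, and the control limit leaves no fold for it. The gene lower without Ehf was Ugdh, which makes UDP-glucuronic acid and read 6.79, 6.44, 7.18 and 5.40 over the 4 arrays. Ugdh was not called between wild-type stem and non-stem cells (-0.35).

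Of 10 transporter genes for conjugates, drugs and organic anions, 7 were lower in wild-type stem than in non-stem cells and 1 was higher. The organic anion transporters of kidney Slc22a6 and Slc22a8 and the phosphate and anion carrier Slc17a1 were at least 8.04-fold, 6.64-fold and 9.68-fold lower. Slc22a6 also stands in the kidney tubule list. Abcc2, the pump for glutathione and glucuronide conjugates, read 8.88, 5.0, 8.17 and 2.88, at least 5.82-fold higher on the LncGata6 mutant than on the wild-type stem array. The pumps Abcg2 (at least 1.85-fold) and Abcb1a (2.69-fold) were higher there as well. Abcc2 and Abcb1a were lower on the Ehf knockout than on the wild-type stem array, with differences of -2.12 and -1.68, and Abcc4 was higher (1.12); for Abcc2 and Abcc4 both values were under the control limits.

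Among 10 measured regulators, 1 was higher and 3 were lower in wild-type stem than in non-stem cells, 0 were called in the LncGata6 comparison and 3 were lower on the Ehf knockout array. Hnf4a, a nuclear receptor of liver, kidney and gut epithelium, read 8.16, 7.31, 7.75 and 4.57. The gut factor Cdx2 read 4.69, 6.71, 6.31 and 4.27, and the drug-sensing receptor Nr1i2 (PXR) 5.52, 5.01, 5.80 and 3.39. These were the 3 that were lower on the Ehf knockout array, for Nr1i2 with both values under the control limits. Ppara, the fatty acid receptor, was at least 2.33-fold lower on the wild-type stem than on the non-stem array. The other lower ones were the nuclear receptors Rxra (at least 2.19-fold) and Nr1i3 (3.68 against 5.34). For Nr1i3 the control limit leaves no fold.

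Of 8 measured targets of Nrf2 outside the enzymes, 4 were lower on the wild-type stem than on the non-stem array, Gclc, Hmox1, Me1 and Osgin1. This list shares genes with that of glutathione supply and breakdown, Gclc among them. On the Ehf knockout array 4 of the 8 were lower than on the wild-type stem array and 1 was higher. The higher one was Hmox1, the haem oxygenase, at 8.23 against 4.02 (at least 6.10-fold). Some of the 4 lower ones, Me1 among them, had both values under the control limits. Without Ehf 6 of 7 macrophage and 3 of 3 red cell markers were higher as well, and their part in these values was not tested. On the LncGata6 mutant array 1 of the 8 targets was higher, the sulfiredoxin Srxn1 (3.07-fold).

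Of 16 measured genes of other conjugation routes and related proteins, 5 were lower on the wild-type stem than on the non-stem array. They were the methyltransferases Inmt (at least 9.42-fold), Gnmt (at least 7.85-fold) and Tpmt (at least 2.27-fold), the glycine transferase Glyat (at least 3.26-fold) and the bile acid enzyme Baat (at least 1.56-fold). On the LncGata6 mutant array Nat2 (5.03 against 2.68, both under the control limits) and Clic1 (2.84-fold) were higher. On the Ehf knockout array 1 was higher, Alox5ap, the leukotriene synthesis partner of myeloid cells, at 9.49 against 4.99 (at least 14.6-fold).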

How the data were processed

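Gene expression was measured on 4 arrays, 1 per group. The deposited table holds the authors' log2 values for each feature. Per the submitters' processing notes, the tools were Affymetrix Power Tools and RMA; their versions and a genome build are not given in the sources used here. The log2 scale was taken from the values (-0.18 to 13.1). RMA compresses differences of dim features. Medians over features with 1 symbol were 3.24 to 3.55, so the arrays had not been made identical over them.

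The table has 72688 features: 30604 carry 1 symbol in the platform annotation, 2146 carry several and were left out, and 39938 are unnamed here. Genes with several features (352) took the one with the highest mean. Members were matched on these symbols. Members, lists and limits were chosen with earlier results of these data known, and no list is independent support. Every enzyme above a control limit on at least 1 array is given with its 4 values; the others are counted and given by class as a range. Of the cofactor, transporter, regulator and other conjugation genes, up to 4 called genes per group and comparison could be named, largest differences first. Not every gene this allows is named, these lists are not given for the comparison between the mutants, and Slc26a2 and Tpmt, outside it, were chosen after their values were seen.

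Differences are between 2 arrays, with no test. Calling was tested on simulated data. Rescalings used limma 3.58.1 in R 4.3.3, and the rest Python 3.11.15 and pandas 2.3.3. Alternatives were median centring, quantile normalization, cyclic loess, the median of features, other limits and updated symbols. The number of arrays limits the precision.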

Additional observations from a re-analysis of the deposited data

Results flagged for a closer look

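There were 5 enzymes called in opposite directions in the comparisons of the mutants with the wild-type stem array. Over all genes 2.84% were higher with mutated LncGata6 and 5.29% lower without Ehf. How many of all genes were called in opposite directions is not given here, so the 5 have no share to stand against. The differences on the LncGata6 mutant and Ehf knockout arrays were 1.36 and -2.52 for Gstm3, 1.29 and -3.02 for Ugt2a3, 2.45 and -4.16 for Sult1b1, 1.03 and -5.34 for Sult1d1, and 1.62 and -1.79 for Sult2b1. Without Ehf all 5 were under the control limit, so the negative differences are not exact. For Ugt2a3, Sult1b1 and Sult2b1 the wild-type stem value was under it too, and their calls as lower are lost when the brighter value must reach the limit; Gstm3 and Sult1d1 pass. With 1 array per group the difference between the mutants was not tested, and the comparisons share the wild-type stem array.

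Outside the rule, because they carry several symbols, 2 features were above the control limits. The feature of Gsta1 and Gm3776 read 7.99 on the non-stem, 6.25 on the wild-type stem, 6.97 on the LncGata6 mutant and 2.56 on the Ehf knockout array. The feature of Gstp2 and the pseudogene Gstp-ps read 8.83, 6.83, 6.93 and 5.75. Both follow the order of arrays seen for Gsta2. The shared feature of Ugt2a1 and Ugt2a2 was under the limit on every array, at 1.03 to 1.66.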

How the results depend on the processing

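The 27 enzymes lower on the wild-type stem than on the non-stem array numbered 20 to 30 over the alternatives. The single higher one became 2 under quantile normalization, with Sult2b1 added, and 0 when the brighter value had to reach the control limit or the difference 2. The median over the enzymes in the LncGata6 comparison, -0.0087, turned to 0.0027 with median centring, 0.045 with quantile normalization and 0.048 with cyclic loess. Its 5 higher enzymes became 1 at a difference of 2. The count of 0 higher on the Ehf knockout array became 1, Gstm1, under median centring, quantile normalization and cyclic loess. The 10 lower there became 4 above the control limit and 6 at a difference of 2. The 11 higher on the LncGata6 mutant than on the Ehf knockout array became 7 at a difference of 2. No called enzyme changed sign under the 3 rescalings. Rescaling moved the split of all genes: in wild-type stem against non-stem cells 1162 were higher and 2147 lower, but 1712 and 1664 after quantile normalization. With mutated LncGata6 the 855 and 916 became 1100 and 641 after cyclic loess. Without Ehf the 782 and 1595 became 1083 and 1026 after cyclic loess, and between the mutants the 1872 and 1054 became 1406 and 1429 after quantile normalization. The median over all genes, -0.11 in wild-type stem against non-stem cells and -0.20 without Ehf, became 0.0066 and -0.013 after median centring. The Sult genes under the control limits, and folds given as at least, are limited by signal over background. No paired analysis was possible because each group has 1 array.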
